A study of Carthamus tinctorius with 15 samples.

Results

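Gene expression in root was set against that in flower in safflower (Carthamus tinctorius), a thistle-like oil crop of the daisy family. The comparison rests on 3 root and 3 flower RNA-seq libraries, called by their tissue and number, and on 19487 of the 33242 genes in the table, those that had at least 1 FPKM in at least 3 of these 6 libraries. FPKM, the unit of the deposited values, is the reads of a gene per kilobase of its length and per unit of library size. The labels give the tissue and a number for each library and nothing on variety, age, flower stage or treatment. Separate plants behind the 3 libraries of an organ are not mentioned, so p-values speak for the scatter of the libraries alone, and that scatter may be technical. For single genes it was estimated over the root, flower, stem and leaf libraries together. The series as a whole is about how seeds form storage oil, and its design text speaks of seed stages; root and flower are vegetative and reproductive tissues measured beside them. The table has no gene identifiers, so a gene is named by its row, counted from 1, and no function can be attached to it. The tissue labels could not be set against known marker genes for the same reason.

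Roots anchor the plant, take up water and mineral ions and exchange compounds with the soil, and they carry out little of the photosynthesis of green organs. A safflower head is made of many small florets, whose petals accumulate yellow and red chalcone pigments and which carry the pollen and the ovaries. The organs therefore differ in cell types as well as in metabolism, and a whole-organ library averages over all of them. In such libraries a change in the number of cells of a type and a change in RNA per cell cannot be told apart.

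Both organs had like totals of reads assigned to genes, as recovered from the values. Root replicates 1 to 3 had 27813826, 26183138 and 29184532 reads, and flower replicates 1 to 3 had 30431421, 29363997 and 30488919. These totals do not show the depth of sequencing itself. Across the chosen genes, which are not independent replicates, root libraries correlated with each other at 0.992 (Spearman), and flower replicates 2 and 3 at 0.992. Flower replicate 1 stood apart at 0.982 from each of the other flower libraries, and root with flower libraries lay at 0.462 to 0.473. By a chi-square over genes per degree of freedom, the variance between replicate pairs was 3.71 to 4.19 times the counting variance in root. In flower it was 3.87 times for replicates 2 and 3, and 53.5 and 54.7 times for the pairs with replicate 1. The median standard deviation of a gene on the log2(FPKM + 1) scale was 0.087 in root and 0.144 in flower, and 0.071 in flower without replicate 1. In flower replicate 1, 282 genes were higher than in both other flower libraries by at least 1 on that scale, and 51 were lower. The 282 genes had median levels of 5.7 FPKM in root, 11.4 in flower, 2.29 in stem and 2.67 in leaf. In root replicate 3, 52 genes were so much higher than in both other root libraries, and 23 were lower. The 52 genes had median levels of 2.06 FPKM in root, 5.99 in flower, 7.35 in stem and 13.8 in leaf. What sets these libraries apart was not tested. The counts of calls and the means of several named genes, but not of all, are given with and without them.

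Root and flower differed widely, and on the deposited FPKM scale most of the genes that differed were higher in root. Of the 19487 genes, 8176 were higher in root and 3580 higher in flower by limma. A gene was called at an adjusted p below 0.05 if its means were 1 or more apart on the log2(FPKM + 1) scale. Over the 20769 genes tested across 4 tissues, 57.1% were called in this comparison, 39.8% as higher in root and 17.3% as higher in flower, beside 60.33% of the chosen genes. The root and flower libraries did not overlap in 17226 of the 19487 chosen genes, beside 17867 (86.0%) of the 20769 genes tested. A gene at 1 FPKM in a single tissue enters the choice because it differs, so the genes at 1 FPKM or more in all 6 libraries were counted apart. Of these 13961 genes, 4688 were higher in root, 2220 were higher in flower and 7053 were not called. A further 2871 genes reached 1 FPKM in every root and no flower library, and 1163 did so in every flower and no root library. Beside the threshold of the choice, row 29030 had a third-highest value of 1.0015 FPKM and was kept, and row 23256 one of 0.9997 FPKM and was not.

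The balance of directions depended on how the libraries were scaled. The median chosen gene was 0.68 higher in root on the log2(FPKM + 1) scale, and 0.46 higher among genes at 1 FPKM or more in all 6 libraries. Dividing each library by its median ratio to the other libraries, which takes the median gene as unchanged, brought the first of these to 0.007. With that scaling 5745 genes were higher in root and 5424 higher in flower, so the share of calls higher in root was 51.4% in place of 69.5%. Among genes at 1 FPKM or more in all 6 libraries the majority turned, with 2621 higher in root and 3942 higher in flower. All 5745 root calls after scaling were among the 8176 before it, and all 3580 flower calls remained. This scaling raises flower FPKM and lowers root FPKM by the same factor for every gene of a library, so this nesting follows largely from its construction. The shift on the log2(FPKM + 1) scale was not the same for all genes. Row 20891, near 0 in flower, went from 10.12 to 9.75, and row 18911, abundant in both organs, from -0.01 to -0.77. Relative to the shift of the median gene, 70.3% of the root calls were thus kept.

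**Figure D1:**
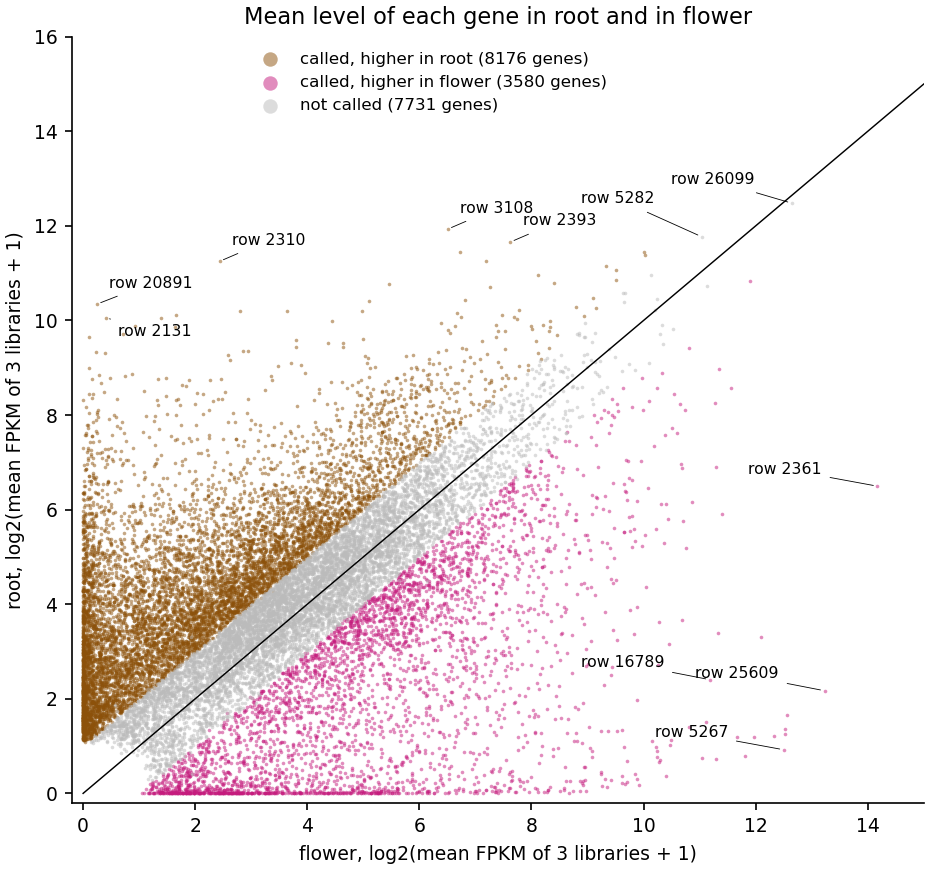
Each point is 1 of the 19487 genes, placed by its mean level over 3 libraries in root (vertical) and flower (horizontal), both as log2(FPKM + 1), and coloured by its limma call. The 8176 genes above the grey band were higher in root, the 3580 below it higher in flower, and the lower right corner holds the flower genes near 0 in root, such as row 5267 at 5803 FPKM in flower.

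The genes that stood out most in root reached 646.5 FPKM or more there and were nearly silent in flower. Row 20891 (776 bases) had 1293, 1276 and 1330 FPKM in root replicates 1 to 3, against 0.466, 0.0878 and 0 in flower replicates 1 to 3. Its flower reads numbered 13 in all, 11 of them in flower replicate 1, and its flower mean was 0.184 FPKM with that library and 0.0439 without it. The difference of 10.12 (SE 0.114, limma adjusted p = 6.40e-15) was the largest toward root among the chosen genes on the log2(FPKM + 1) scale. Row 2131 (1135 bases) had 1076, 1058 and 1065 FPKM in root, against 0.84, 0.09 and 0.0289 in flower, and its flower mean of 0.319 was 0.0595 without flower replicate 1. The pattern was the same in both genes, with root libraries within a few percent of each other and a trace in flower that was highest in replicate 1.

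Row 13633 (303 bases) had 803.9, 793.7 and 815.5 FPKM in root and 2 reads in the 3 flower libraries together, at 0.108, 0.112 and 0 FPKM. Row 17745 (1125 bases) had 655.5, 634.2 and 649.8 FPKM in root, against 0.321, 0.212 and 0 in flower, where its mean of 0.178 was 0.106 without replicate 1. Row 16808 (1540 bases) had 852.5, 839 and 822.4 FPKM in root, against 0.661, 0.553 and 0.681 in flower. In this gene the flower libraries were level, so the low flower value did not rest on a single library, and the difference was 9.01 (SE 0.042, limma adjusted p = 4.10e-17). Row 11169 (844 bases) had 934, 923.7 and 975.1 FPKM in root, against 1.13, 0.847 and 0.7 in flower. These 6 genes were not alike outside the comparison, since stem held 674.7 ± 9.47 FPKM of row 11169 (SD, n = 3) but 30.34 ± 5.17 of row 13633.

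On the flower side the strongest genes reached 5117 FPKM or more, above the strongest root genes. Row 5267 (312 bases) had 0.23, 0.367 and 2.09 FPKM in root replicates 1 to 3, against 4530, 6454 and 6423 in flower replicates 1 to 3. Its difference of -11.69 for root minus flower (SE 0.374, limma adjusted p = 2.69e-11) was the largest in either direction with the pseudocount of 1. Row 5270 passed it with a pseudocount of 0.1, at -13.55 against -13.01, with voom on recovered reads, at -13.82 against -13.10, and without root replicate 3, at -12.39 against -12.11. Root replicate 3 held 19 of the 24 root reads of row 5267. The root mean of row 5267 was 0.895 FPKM with that library and 0.299 without it. Row 5270 (288 bases) had 0, 0.133 and 4.52 FPKM in root, against 4042, 6286 and 7294 in flower, and its root mean of 1.55 was 0.0663 without root replicate 3. Row 28466 (903 bases) had 0.597, 0.55 and 3.04 FPKM in root, against 4807, 6491 and 6477 in flower, and its root mean of 1.39 was 0.574 without root replicate 3. In all 3 genes root replicate 3 was the highest root library and flower replicate 1 the lowest flower library.

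Row 25609 (836 bases) had 0.903, 1.69 and 7.91 FPKM in root, against 7978, 10543 and 10301 in flower. Its neighbour in the table, row 25608 (327 bases), had 0.44, 0.818 and 2.72 FPKM in root, against 3781, 5826 and 5744 in flower. Without root replicate 3 the root means were 1.3 in place of 3.5 FPKM for row 25609 and 0.629 in place of 1.33 for row 25608. The neighbours differed in other tissues, where row 25609 had 1066 ± 21.1 FPKM in stem and 966.4 ± 7.57 in leaf (SD, n = 3 each), and row 25608 had 1.29 ± 0.711 in stem and 1.3 ± 0.214 in leaf. Row 5269 (453 bases) had 1.35, 0.674 and 4.46 FPKM in root, a mean of 2.16 that was 1.01 without replicate 3, against 4573, 6892 and 6611 in flower.

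**Figure D2:**
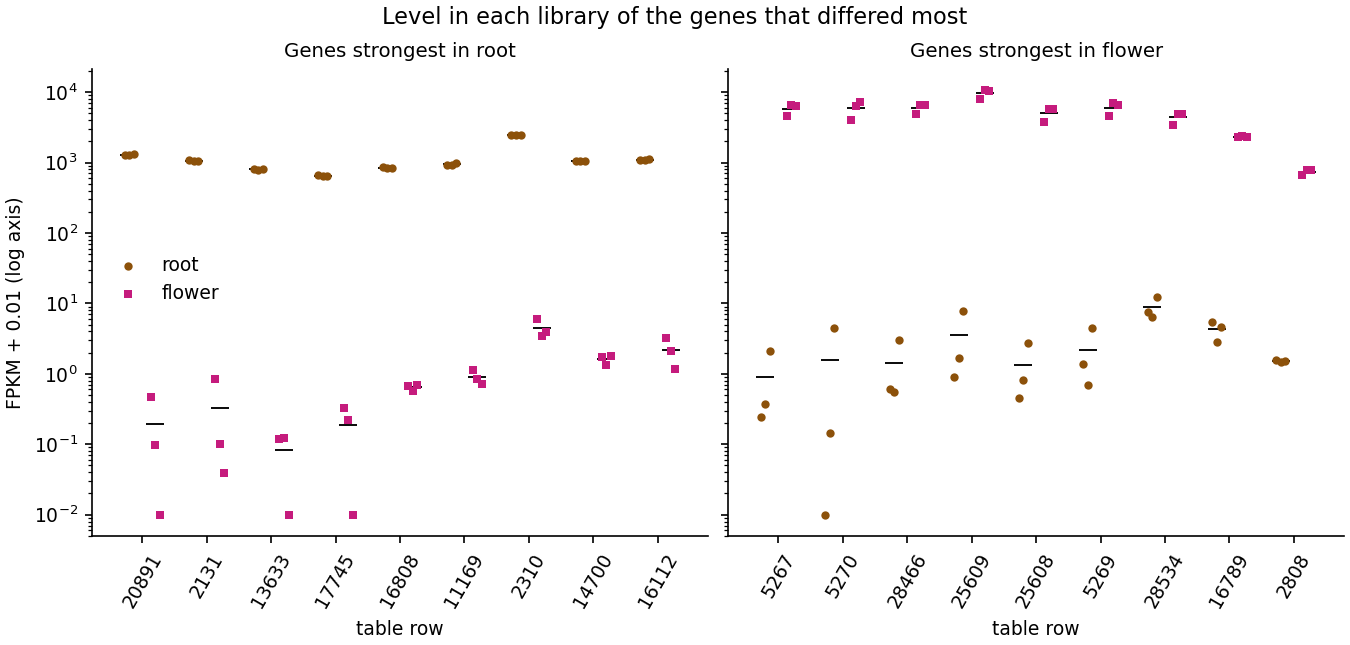
Level of 18 genes chosen for large differences, as FPKM + 0.01 on a log axis. Each library has 1 point (circles root, squares flower), with a bar at the mean. In each panel the first 6 rows had the largest differences of all. The last 3 had the largest among genes at 1 FPKM or more in all 6 libraries. The root and flower points of each row are far apart, and a lack of overlap was a condition for choosing the rows.

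Large differences were also found among genes that passed 1 FPKM in every library of both organs, though some were barely above it in the lower organ. Row 2310 (1778 bases) had 2444, 2432 and 2430 FPKM in root, against 5.91, 3.43 and 3.87 in flower. Row 14700 (1825 bases) had 1059, 1065 and 1053 FPKM in root, against 1.73, 1.32 and 1.78 in flower. Row 16112 (1314 bases) had 1099, 1098 and 1112 FPKM in root, against 3.25, 2.07 and 1.15 in flower. By means they were 553, 657 and 511 times as high in root, and they differed by 8.84 (SE 0.121), 8.67 (SE 0.059) and 8.51 (SE 0.174), with limma adjusted p-values of 2.22e-14, 4.04e-16 and 5.71e-13.

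In the other direction, row 28534 (886 bases) had 7.55, 6.47 and 12.5 FPKM in root, against 3358, 4888 and 4851 in flower. Row 16789 (600 bases) had 5.39, 2.86 and 4.63 FPKM in root, against 2270, 2398 and 2305 in flower. Row 2808 (342 bases) had 1.58, 1.45 and 1.5 FPKM in root, against 663.4, 771.7 and 773.9 in flower. Their flower means were 494, 541 and 487 times their root means. That the groups did not overlap was a condition for choosing these genes. The differences were -8.82 (SE 0.191), -8.81 (SE 0.197) and -8.19 (SE 0.095), with limma adjusted p-values of 8.78e-13, 1.14e-12 and 7.23e-15. Row 16789 was also low in stem, at 3.19 ± 0.203 FPKM, and in leaf, at 2.96 ± 1.12 (SD, n = 3 each), while row 28534 had 1247 ± 16.9 FPKM in stem and 549.2 ± 12.2 in leaf.

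The most abundant messages of the organs were mostly different genes. Of the 100 genes with the highest mean in root and the 100 with the highest in flower, 14 were in both lists. Of the root list, 74 were called higher in root, 2 higher in flower and 24 neither way. Of the flower list, 2 were called higher in root, 85 higher in flower and 13 neither way. The lists were chosen by level in these libraries, so the direction of their calls is a description.

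Among the 4 genes highest in root, row 3108 (441 bases) had 3871, 3925 and 3913 FPKM in root, against 125.4, 77.3 and 66.6 in flower, which is 5.48 apart (SE 0.167, limma adjusted p = 1.69e-11). Row 2393 (708 bases) had 3244, 3249 and 3197 FPKM in root, against 192.6, 197.9 and 196.9 in flower, a difference of 4.04 (SE 0.030, limma adjusted p = 5.52e-16). Its mean in stem, 3357 ± 26.3 FPKM (SD, n = 3), was above that in root. The remaining genes of this list were abundant in flower as well. Row 26099 (158 bases) had 6376, 5535 and 5231 FPKM in root, against 6275, 6686 and 6254 in flower, with overlapping libraries. Its difference was -0.17 and passed no threshold (SE 0.118, limma adjusted p = 0.198), and it was -0.94 after median-ratio scaling. Row 5282 (183 bases) had 3485, 3556 and 3442 FPKM in root, against 2075, 2129 and 2096 in flower. Its difference of 0.73 (limma adjusted p = 6.27e-10) was past the spread but under the threshold of 1, and it was -0.03 after median-ratio scaling.

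Row 2361 (828 bases) was the most abundant gene of flower by far, with 87.5, 84.5 and 95.7 FPKM in root, against 17115, 19153 and 19179 in flower. The difference was -7.68 (SE 0.055, limma adjusted p = 5.22e-16), while root still averaged 89.2 ± 5.79 FPKM (SD, n = 3). Rows 25609, 26099 and 5269, described above, completed the 4 highest in flower.

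A set of abundant genes was level between the organs on the deposited scale. Row 18911 (3773 bases) had 197.1, 206.6 and 195.5 FPKM in root, against 208.8, 193.8 and 199.1 in flower. Row 29708 (1271 bases) had 135.5, 136.2 and 145.7 FPKM in root, against 138.5, 139.8 and 141.4 in flower. Row 19747 (288 bases) had 1174, 1207 and 1181 FPKM in root, against 1148, 1202 and 1190 in flower. The libraries overlapped in all 3, and the differences were within 0.01 of 0 (SE 0.046, 0.039 and 0.041). They were chosen as the smallest differences among genes averaging 100 FPKM or more, and after median-ratio scaling all 3 were lower in root, by differences of -0.77, -0.77 and -0.76 for rows 18911, 29708 and 19747, which stayed under the threshold of 1.

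Fewer genes carried a larger part of expression in flower. The 100 highest genes of each library held 16.02%, 16.07% and 15.88% of all FPKM in root replicates 1 to 3, against 23.77%, 26.5% and 26.53% in flower replicates 1 to 3. The libraries did not overlap, and the two-sided exact permutation p of 0.1 is the smallest that 3 against 3 can give. The 10 highest held 4.12% ± 0.0803 in root and 9.09% ± 1.08 in flower (SD, n = 3 each). Genes at 1 FPKM or more numbered 18386, 18383 and 18477 in root, against 16470, 16142 and 16191 in flower (exact permutation p = 0.1, the smallest possible). After median-ratio scaling the gap was smaller, at 18037 ± 36.1 genes in root and 16932 ± 105 in flower (SD, n = 3 each).

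The direction of the calls changed with expression level. Among the 5100 genes that averaged 3 to 10 FPKM over the 6 libraries, 48.2% were higher in root and 13.3% higher in flower. Among the 1219 genes at 100 to 300 FPKM, 37.2% were higher in root and 30.2% higher in flower. Among the 347 genes at 300 FPKM or more, 28.2% were higher in root and 41.8% higher in flower. As deposited, root held most of the calls in these classes below 300 FPKM and flower most of those above. Of all calls, the root share was 78.4% at 3 to 10 FPKM and 40.3% at 300 FPKM or more. After median-ratio scaling these shares were 63.4% and 29%, with the genes kept in their classes of deposited FPKM. Flower then held most calls in every class from 10 FPKM up. The root shares were 49.3% at 10 to 30 FPKM, 36.4% at 30 to 100 and 39.7% at 100 to 300. The mean is taken over the libraries compared, so a gene with a very high level in 1 organ moves up a class.

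**Figure D3:**
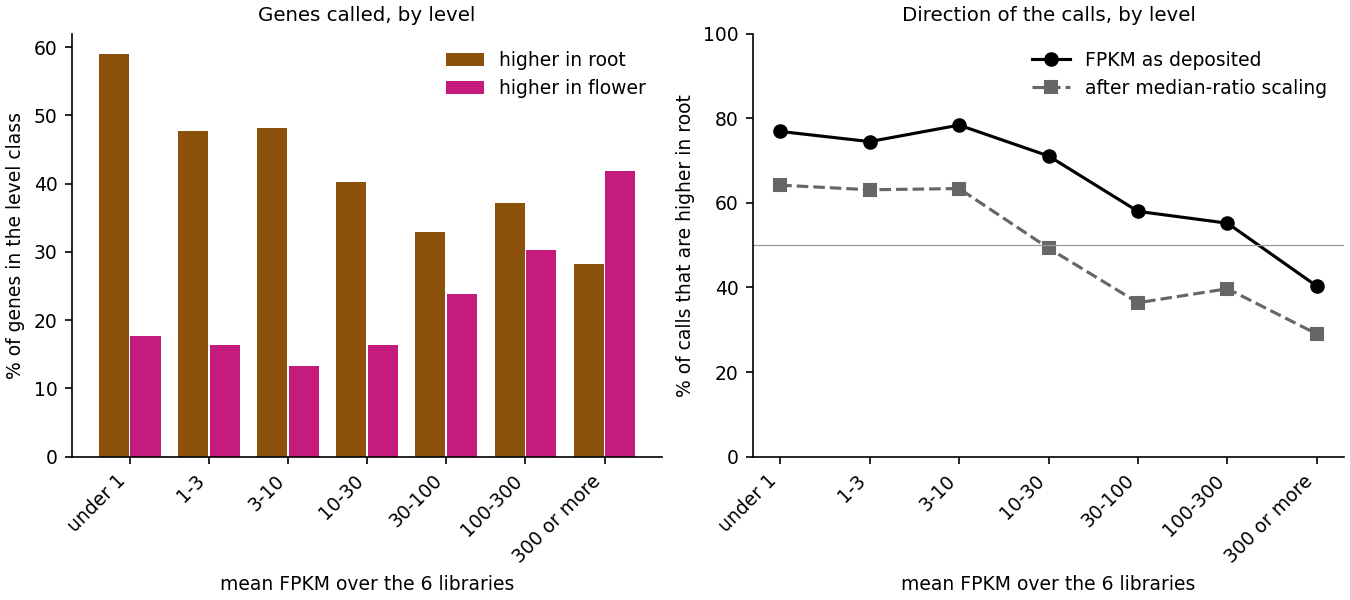
Left, percent of the genes of each level class (mean FPKM over the 6 libraries) called higher in root and higher in flower; right, percent of calls that were higher in root, with the deposited FPKM (solid) and after median-ratio scaling (dashed). On the left the root bar is below the flower bar in the class at 300 FPKM or more alone, at 28.2% for root and 41.8% for flower. The classes are by deposited FPKM for both lines on the right.

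The size of the differences followed a like order. Differences of 1 to 2 were found in 4055 genes higher in root and 1570 higher in flower, and those of 5 or more in 385 higher in root and 400 higher in flower. At 8 or more, 23 genes were higher in root and 68 higher in flower, so the largest differences were mostly toward flower. Over all genes tested, differences of 5 or more were called in 1.85% as higher in root and in 1.93% as higher in flower. After median-ratio scaling 278 genes differed by 5 or more toward root and 580 toward flower. The 385 root genes made up 9.9%, 9.95% and 9.89% of all FPKM in root replicates 1 to 3, against 0.0882%, 0.0762% and 0.0749% in flower replicates 1 to 3. The 400 flower genes made up 0.0986%, 0.097% and 0.118% in root replicates 1 to 3, against 22.1%, 24.8% and 24.9% in flower replicates 1 to 3. Both sets were picked for their difference, and their members were not all near 0 in the lower organ.

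The libraries that stood apart show in these traces. Of the 385 root genes, 226 had their highest flower value in flower replicate 1. Of the 400 flower genes, 214 had their highest root value in root replicate 3, whose sum of 908 FPKM over them compares with 760 and 747 in root replicates 1 and 2. Their part in the near-zero levels of single genes was not tested. Without both libraries the calls numbered 8298 higher in root and 3541 higher in flower.

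Stem and leaf, which the choice of genes did not use, had medians between those of root and flower in both the root genes and the flower genes. The 385 genes higher in root by 5 or more had median levels of 96.5 FPKM in root, 0.253 in flower, 51.2 in stem and 17.1 in leaf. The 400 genes higher in flower by 5 or more had medians of 0.442 FPKM in root, 163 in flower, 1.91 in stem and 3.27 in leaf. Stem averaged under 1 FPKM for 23 of the 385 root genes and for 169 of the 400 flower genes, and leaf did so for 42 of the root genes and 155 of the flower genes. No test was made between these groups of genes, which were defined by their levels in root and flower.

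**Figure D4:**
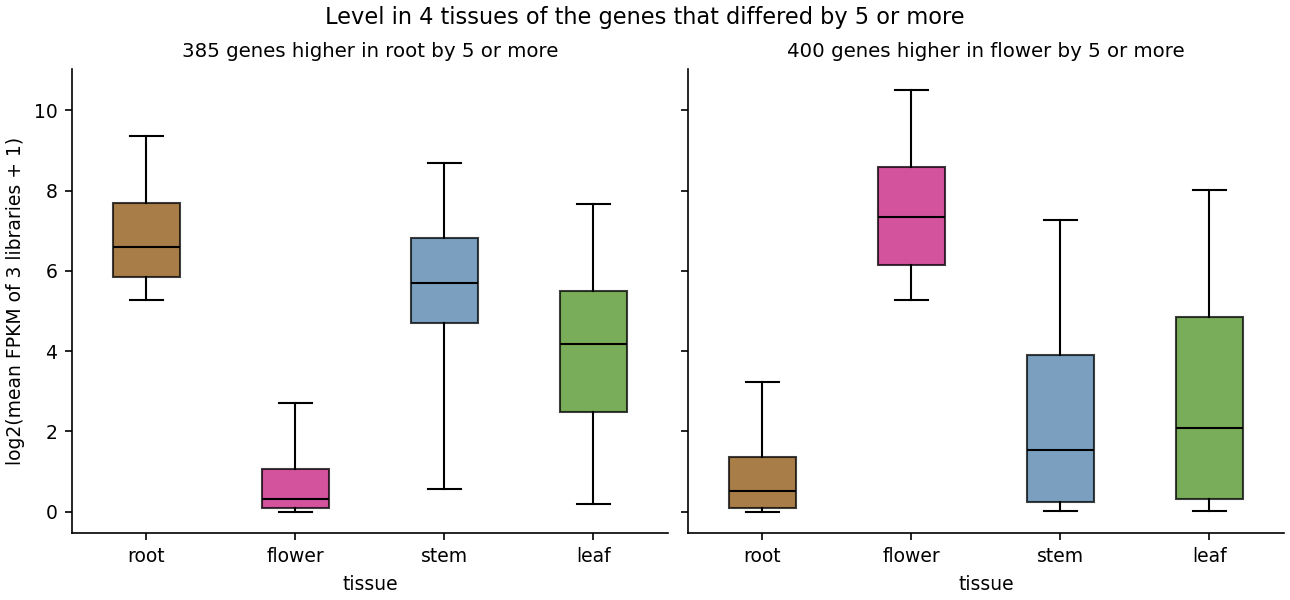
Levels in root, flower, stem and leaf of the 385 genes higher in root by 5 or more (left) and the 400 higher in flower by 5 or more (right), as log2(mean FPKM of 3 libraries + 1); boxes span the quartiles over genes with a line at the median, and whiskers the 5th to 95th percentile. Root and flower were used to choose the genes, and of the tissues not used stem is high on the left (median 51.2 FPKM) and low on the right (1.91).

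Over all calls, most genes had their highest mean in the organ toward which they were called. Of the 8176 genes higher in root, 64.2% had their highest mean in root, 19.1% in stem and 16.7% in leaf. Of the 3580 higher in flower, 80.9% had it in flower, 2.57% in stem and 16.5% in leaf. A gene called higher in root cannot have its highest mean in flower, nor the reverse, so these shares split only the remaining choices. After median-ratio scaling the highest mean was in root for 54.1% of the root genes, in stem for 20.4% and in leaf for 25.4%, and in flower for 85.7% of the flower genes, in stem for 1.31% and in leaf for 13%, which turned the order of stem and leaf among the root genes.

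Some genes were read in a single organ of the pair. At 10 or more reads in each library of the organ and 0 in all 3 of the other, there were 351 such genes in root and 223 in flower. Their median level was 3.91 FPKM in root for the root genes and 6.13 FPKM in flower for the flower genes. Of the 351 root genes, 321 had reads in stem and 296 in leaf, and 23 in neither. Of the 223 flower genes, 115 had reads in stem and 134 in leaf, and 71 in neither. The highest of each were picked out after their values were seen. Row 29899, whose recovered length of 45 bases may be too short, averaged 317.6 ± 9.02 FPKM in root (SD, n = 3) and had no read in flower. Row 12544 (141 bases) had no read in root and 249.6, 506.5 and 468.7 FPKM in flower, at least 1596-fold higher against a floor of 3 reads over the root libraries. Such a floor covers counting error only.

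Some genes that differed in the same direction stood beside each other in the table. Of the 8176 genes higher in root, 31.2% were followed by a row also higher in root, and so were 28.2% of the chosen genes not called. Of the 3580 higher in flower, 17.7% were followed by a row higher in flower, and so were 11.5% of the chosen genes not called. Nothing states whether the order of rows follows the genome. With differences of at least 2, there were 106 runs of 3 or more consecutive rows among 4121 root genes, and 40 among 2010 flower genes. Runs of 4 or more numbered 24 toward root and 8 toward flower. How many runs would arise in a random order of rows was not tested.

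The longest run toward flower was rows 5266 to 5271, and it held 4 genes that differed by more than 11 on the log2(FPKM + 1) scale. Rows 5267, 5269 and 5270 are given above, and row 5268 (444 bases) had 0.324, 0.688 and 1.16 FPKM in root, against 2567, 4099 and 4160 in flower, a difference of -11.03 (SE 0.259, limma adjusted p = 1.77e-12). The ends of the run were far less abundant. Row 5266 (417 bases) had no read in root and 23.6, 34.8 and 32 FPKM in flower, at least 348-fold higher against a floor of 3 reads over the root libraries. Row 5271 (393 bases) had 1 read in root, at 0, 0.0972 and 0 FPKM, against 48.7, 73.9 and 64.6 in flower. Flower replicate 1 was the lowest flower library in all 6 rows. The run was also low outside the pair, with stem and leaf means of at most 2.42 FPKM. The treatment of reads that fit several alike genes is not stated in the notes, so the level of each of these neighbours is uncertain if they are copies.

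The longest run toward root was rows 19331 to 19338, and it was of moderate level. Row 19331 (924 bases) was the most abundant, with 37.4, 38.1 and 37.4 FPKM in root, against 9.32, 5.9 and 7.24 in flower. On the log2(FPKM + 1) scale the run was led by row 19338 (1291 bases), with 15.1, 15.7 and 13.6 FPKM in root, against 0.153, 0.0264 and 0.229 in flower (difference 3.80, SE 0.129, limma adjusted p = 4.63e-11), while row 19332 was ahead of it with a pseudocount of 0.1, at 6.55 against 6.08, and with voom on recovered reads, at 9.72 against 6.97. Rows 19332 and 19335 had no read in flower. Row 19332 (1503 bases) averaged 9.29 ± 0.404 FPKM in root (SD, n = 3), at least 420-fold higher against a floor of 3 reads over the flower libraries. Row 19335 (510 bases) averaged 8.39 ± 2.33 FPKM in root, at least 129-fold higher by the same floor. The 4 rows not yet given averaged 5.19 to 9.88 FPKM in root. Row 19333 (2598 bases) was the exception in stem, where its mean of 12.1 ± 0.724 FPKM was above that of root, 9.88 ± 1.31 (SD, n = 3 each).

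**Figure D5:**
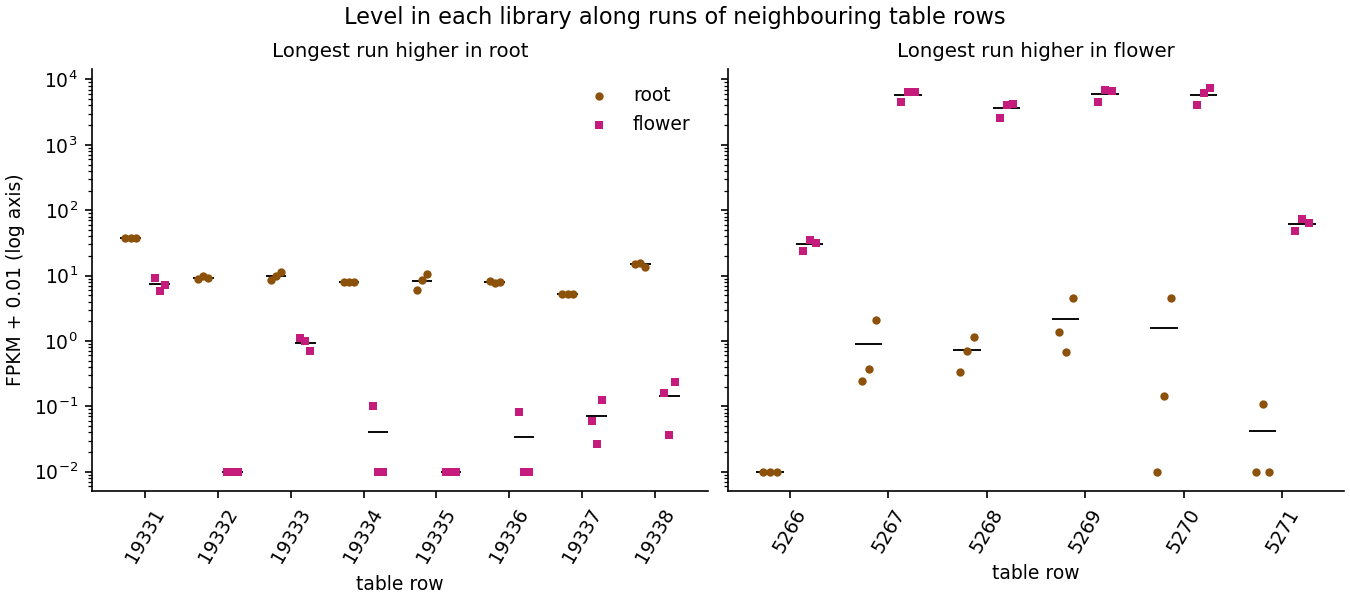
FPKM + 0.01 on a log axis in each root library (circles) and flower library (squares) along the longest run of consecutive rows higher in root (left, rows 19331 to 19338) and higher in flower (right, rows 5266 to 5271), with a bar at the mean. In the flower run the 4 middle rows average 3608 to 6025 FPKM in flower and the 2 end rows 30.1 and 62.4, while the rows of the root run average 5.19 to 37.6 FPKM in root.

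Gene length differed little between the groups of calls. The median recovered length was 1336 bases for genes higher in root, 1362 for those higher in flower and 1421 for those not called. Genes that differed by 5 or more were shorter, at 1139 bases toward root and 1304 toward flower. No test was made on these lengths, and a gene with few reads may in truth be longer than recovered.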

How the data were processed

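The FPKM values deposited by the authors were used for root, flower, stem and leaf, 3 libraries each; the 3 seed libraries were not analysed here. Per the submitters' processing notes, fastp, HISAT2, HTSeq and R 3.2.0 were used, with no role or order given; build, annotation and strandedness: not given in the sources used here. Per the labels' protocols, RNA came from TRIzol extraction and a VAHTS kit. FPKM is relative to the library total, so a few abundant genes lower all others.

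limma 3.58.1 (R 4.3.3) was fitted to log2(FPKM + 1) over 12 libraries with a mean for each tissue, a mean-variance trend and 8 residual degrees of freedom, on the 20769 genes reaching 1 FPKM in 3 or more libraries. P-values for root minus flower were adjusted over all of them by the Benjamini-Hochberg method. The scale understates the change of low genes. The fit was also run on simulated libraries, none of which stood apart and which had no shift of the median gene. That run therefore does not cover either feature of these data. Figures and counts were made in Python 3.11.15.

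Reads and lengths were recovered from the step between low values, as the smallest whole length giving whole reads within 0.01 in every library; this held for 100% of 26625 rows above 0. A recovered read may be a read pair.

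Named genes were, in each direction, the 6 largest differences without overlap and the 3 largest among genes at 1 FPKM or more in all 6 libraries, then the 4 highest in each organ, the 3 most even at 100 FPKM or more and the longest run of rows. Rule, members and tests were chosen with earlier results of these data known. Rows 29899 and 12544 were outside the rule. Same-numbered root and flower libraries did not deviate together (correlations of 0.014, 0.003 and -0.012), so the numbers were not taken as pairs. Alternatives were another pseudocount, filter, scaling, threshold, set of libraries, a replicate block, no trend and voom on recovered reads.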

Additional observations from a re-analysis of the deposited data

How the results depend on the processing

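Of the alternatives, scaling moved the balance of directions most. Median-ratio scaling gave 5424 genes higher in flower in place of 3580, and among genes at 1 FPKM or more in all 6 libraries 2621 higher in root and 3942 higher in flower, with a median difference of 0.007 over the chosen genes in place of 0.681. That scaling sets the median gene near 0 by construction, and neither scaling was tested against the other. The median difference was 0.769 with a pseudocount of 0.1 and 0.776 with limma's voom on recovered reads. With no filter it was 0.310, taken over 25636 genes in place of 19487. The cause of these shifts was not tested. A minimum of 5 FPKM, which leaves fewer genes, gave 3947 calls among genes at that level in all 6 libraries, 2443 of them higher in root. A threshold of 2, stricter by construction, gave 6131 calls, 4121 higher in root and 2010 higher in flower, and in all 6 libraries 2972, with 1929 higher in root and 1043 higher in flower. Voom, chosen after the data were seen, called 12638 genes. Leaving out 1 library at a time gave 11701 to 11830 calls, and the replicate block 11754 in place of 11756. The difference in genes detected ran from 1214 to 2720 over detection minimums and was 1105 after scaling, and no alternative turned its direction or that of the share in the highest genes.

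The 32 named genes that were called kept their direction and call under the 15 other fits run, which says little of other genes, since they were the strongest. Their p-values depended on the libraries that shared the estimate of the spread. With root and flower libraries only, the limma adjusted p was 2.81e-09 in place of 4.10e-17 for row 16808. For row 20891 it was 6.04e-09 in place of 6.40e-15. Differences near 0 changed sign. Row 5282 was at -0.03 after scaling. Without libraries, singly or root replicate 3 with flower replicate 1, row 18911 lay between -0.03 and 0.04, row 29708 between -0.05 and 0.01 and row 19747 between -0.01 and 0.02. After scaling they were at -0.77, -0.77 and -0.76, and row 26099 at -0.94. With 3 libraries a group, exact tests of single values could not go below 0.1, and genes with under 10 reads in an organ have imprecise levels there.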
